A study of Mus musculus with 2 samples.

Results

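Nonclassical monocytes of the adrenal gland, the Ace and Treml4 expressing cells, numbered 64 in the female library, out of 3817 barcodes kept, and 64 in the male library, out of 2502. CD45+ cells had been sorted from the adrenal glands of C57Bl/6 mice aged 7 weeks, and 1 droplet library was made from female and 1 from male mice, with no other treatment or allele on the labels. How many mice went into a library was not stated, and with a single library per sex, variation from mouse to mouse was not measured. Cells from blood inside the vessels and cells of the tissue cannot be told apart in such a sort. All intervals are 95% intervals of counting error only, and no p-value is given. Each gene was counted by unique molecular identifiers (UMIs), and a level is the UMIs summed over the cells of a class in a library, given in CPM, its share of all UMIs of that class.

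The cells were chosen by their counts of a few genes. The barcode had to pass as myeloid (at least 2 UMIs of Lyz2 plus Csf1r), with at most 2 UMIs of C1qa, C1qb and C1qc together, and with no Cd79a, Cd3e or Ncr1. It had to hold fewer than 20 UMIs of S100a8 plus S100a9 and fewer than 5 of Retnla. Within this gate of 363 female and 239 male barcodes, a nonclassical cell had at least 2 UMIs of Ace, Treml4, Adgre4 and Cd300e together, and more of these than of Chil3, Ly6c2, Vcan and F13a1 together. Cells in which the second sum led were taken as classical monocytes, 180 female and 93 male. Macrophages with at least 10 UMIs of the C1q genes, 668 female and 596 male, served as a second reference, called C1q macrophages here.

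Monocytes of the mouse come in 2 main forms. Classical, Ly6C-high cells leave the bone marrow, enter tissues through the chemokine receptor Ccr2 and can become macrophages or dendritic cells. Nonclassical, Ly6C-low cells are mostly derived from them under the nuclear receptor Nr4a1, stay in the vessels, crawl along the endothelium by the integrin LFA-1 (Itgal with Itgb2) and survive through Cx3cr1 and Csf1r signals. The adrenal cortex is perfused by a dense bed of sinusoidal capillaries.

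The genes of the choice encode surface proteins and an enzyme. Ace (ENSMUSG00000020681) is the angiotensin converting enzyme, on chromosome 11 from 105967945 to 105989964 on the forward strand of GRCm38. Treml4 (ENSMUSG00000051682, chromosome 17, 48264295 to 48275360, forward strand) is a receptor of the TREM family. Adgre4 (ENSMUSG00000032915, chromosome 17, 55749984 to 55853662, forward strand) is an adhesion G protein-coupled receptor, also known as EMR4. Cd300e (ENSMUSG00000048498, chromosome 11, 115051917 to 115062177, reverse strand) is an activating immunoglobulin-like receptor. No other annotated gene overlapped any of the 4 on the same strand in GENCODE vM21.

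Since these genes are found together in the same cells, the RefSeq windows around their starts are shown, from 250 bases before to 50 bases after the start (GRCm38.p6, gene strand, 5′ to 3′), followed by those of Ear2 and Spn, which also marked the cells but had no part in their choice. Capitals mark matches, on either strand, to 4 motifs searched, AAAGGTCA (the NBRE, bound by Nr4a1), TTGCNNAA (C/EBP), CCACCC (KLF) and GAGGAAGT (PU.1). Ace has a second window farther into the gene, at chr11:105974939-105975238, which holds a KLF match 175 bases before its start and is not printed.
Ace, chr11:105967698-105967997: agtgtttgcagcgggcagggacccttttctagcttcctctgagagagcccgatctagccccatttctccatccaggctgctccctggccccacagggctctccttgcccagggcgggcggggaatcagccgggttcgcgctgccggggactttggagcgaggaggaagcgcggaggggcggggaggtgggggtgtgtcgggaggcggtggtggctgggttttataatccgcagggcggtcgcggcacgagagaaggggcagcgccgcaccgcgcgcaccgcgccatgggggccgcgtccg
Treml4, chr17:48264045-48264344: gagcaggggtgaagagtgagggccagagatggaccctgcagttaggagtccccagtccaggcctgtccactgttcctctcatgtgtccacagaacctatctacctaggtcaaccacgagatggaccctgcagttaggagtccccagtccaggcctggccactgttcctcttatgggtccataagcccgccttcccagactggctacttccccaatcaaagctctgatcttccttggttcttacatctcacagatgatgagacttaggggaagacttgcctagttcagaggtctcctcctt
Adgre4, chr17:55749734-55750033: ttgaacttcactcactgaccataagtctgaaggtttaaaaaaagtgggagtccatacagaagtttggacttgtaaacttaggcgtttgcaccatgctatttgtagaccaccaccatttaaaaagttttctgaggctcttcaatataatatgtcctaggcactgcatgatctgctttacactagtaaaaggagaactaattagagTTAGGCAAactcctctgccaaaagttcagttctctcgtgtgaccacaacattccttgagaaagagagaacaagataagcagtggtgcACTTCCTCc
Cd300e, chr11:115061990-115062289: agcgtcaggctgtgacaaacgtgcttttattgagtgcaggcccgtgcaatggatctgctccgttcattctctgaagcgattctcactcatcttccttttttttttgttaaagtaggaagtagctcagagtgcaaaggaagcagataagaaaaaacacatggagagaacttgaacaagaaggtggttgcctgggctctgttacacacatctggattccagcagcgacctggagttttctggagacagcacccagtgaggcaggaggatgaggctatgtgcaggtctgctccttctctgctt
Ear2, chr14:44102404-44102703: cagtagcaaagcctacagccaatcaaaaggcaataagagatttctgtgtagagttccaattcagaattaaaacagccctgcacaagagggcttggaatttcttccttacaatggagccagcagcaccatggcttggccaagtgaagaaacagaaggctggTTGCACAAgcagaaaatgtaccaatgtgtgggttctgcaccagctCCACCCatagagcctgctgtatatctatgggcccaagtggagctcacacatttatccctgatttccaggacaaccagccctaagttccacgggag
Spn, chr7:127137774-127138073: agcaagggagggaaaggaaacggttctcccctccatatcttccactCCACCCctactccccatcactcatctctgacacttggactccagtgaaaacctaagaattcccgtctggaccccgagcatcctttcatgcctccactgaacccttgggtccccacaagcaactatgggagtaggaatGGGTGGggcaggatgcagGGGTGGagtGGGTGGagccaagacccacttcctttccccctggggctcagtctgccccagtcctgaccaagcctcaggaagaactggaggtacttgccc

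Of 32851 such windows of the mouse genome, 1.51% held the NBRE letters, 10.8% the C/EBP letters, 31.5% the KLF letters and 3.20% the PU.1 letters. Adgre4 had a C/EBP match 46 bases before its start and a PU.1 match 41 bases after it, Ear2 a C/EBP match 90 bases and a KLF match 45 bases before its start, and Spn 4 KLF matches. The printed windows of Ace, Treml4 and Cd300e held none of the 4, and the NBRE letters were in none of the 6. Among the 12 leading genes outside the choice that were higher than in classical cells, given later, 10 had a window. Of these, 6 had a KLF match and 1 a C/EBP match. Of the 12 leading lower genes 8 had a window, with a KLF match in 3, a C/EBP match in 3 and a PU.1 match in 1. Of the 27025 genes with a window, 34.0% had a KLF, 12.2% a C/EBP and 3.69% a PU.1 match. These matches describe the letters of the windows and were not tied to any measured binding.

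In both libraries the cells carried the nonclassical marker that had no part in the choice. Nr4a1 (ENSMUSG00000023034, chromosome 15, 101254269 to 101274795), the nuclear receptor these monocytes need, was at 996 CPM in the female cells (142 UMIs, 839 to 1174) and 855 CPM in the male cells (166 UMIs, 730 to 995). Classical cells held 286 and 388 CPM, C1q macrophages 29.4 and 21.1 CPM, and T cells 23.3 and 20.4 CPM. The ratio to classical cells was 3.49 (2.79 to 4.35) in the female and 2.20 (1.75 to 2.78) in the male library, so both intervals lay above equality. After thinning every cell to 1000 UMIs, 47.1% of 51 female and 46.8% of 62 male nonclassical cells held an Nr4a1 UMI, against 23.7% and 28.9% of classical cells and 0.594% and 1.23% of B cells. Without thinning these shares were 76.6% and 79.7%, 44.4% and 49.5%, and 2.90% and 1.56%, at median depths of 1623.5 and 2383, 3425 and 3657, and 2307 and 1807 UMIs.

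The genes of the choice are given as a description, since they selected the cells. Ace stood at 765 CPM (628 to 922) in female and 602 CPM (498 to 722) in male nonclassical cells, and at 55.4 and 88.0 CPM in classical cells. Treml4 was at 428 CPM (327 to 550) and 242 CPM (178 to 322), Adgre4 at 905 CPM (756 to 1075) and 710 CPM (597 to 839), and Cd300e at 189 CPM (125 to 276) and 206 CPM (147 to 280). In C1q macrophages, B cells and T cells, the other classes measured, these transcripts were rarer than in nonclassical cells. Without thinning, Adgre4 was found in 11.4% and 13.8% and Treml4 in 5.69% and 4.19% of C1q macrophages. In C1q macrophages Ace was at 3.54 and 2.84 CPM and Adgre4 at 41.1 and 45.5 CPM, and in B and T cells of the female library Ace was at 0.524 and 3.50 CPM.

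Each of the 4 genes was then measured in cells chosen without it, by the other 3. Ace, measured in 48 female and 53 male cells, was at 685 and 566 CPM, 11.3 times (7.70 to 16.9) and 5.45 times (3.72 to 8.11) the classical level. Treml4 was at 379 and 235 CPM, 9.48 times (5.84 to 15.7) and 4.17 times (2.40 to 7.44) the classical level. Adgre4 was at 817 and 737 CPM, with ratios of 4.73 (3.55 to 6.29) and 4.21 (3.08 to 5.79). Cd300e rested on 2 and 1 classical UMIs, and its ratios of 50.1 (12.1 to 443) and 69.1 (11.6 to 2804) were correspondingly wide. All 4 genes thus stood above the classical cells in both libraries without having chosen the cells themselves.

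**Figure D1:**
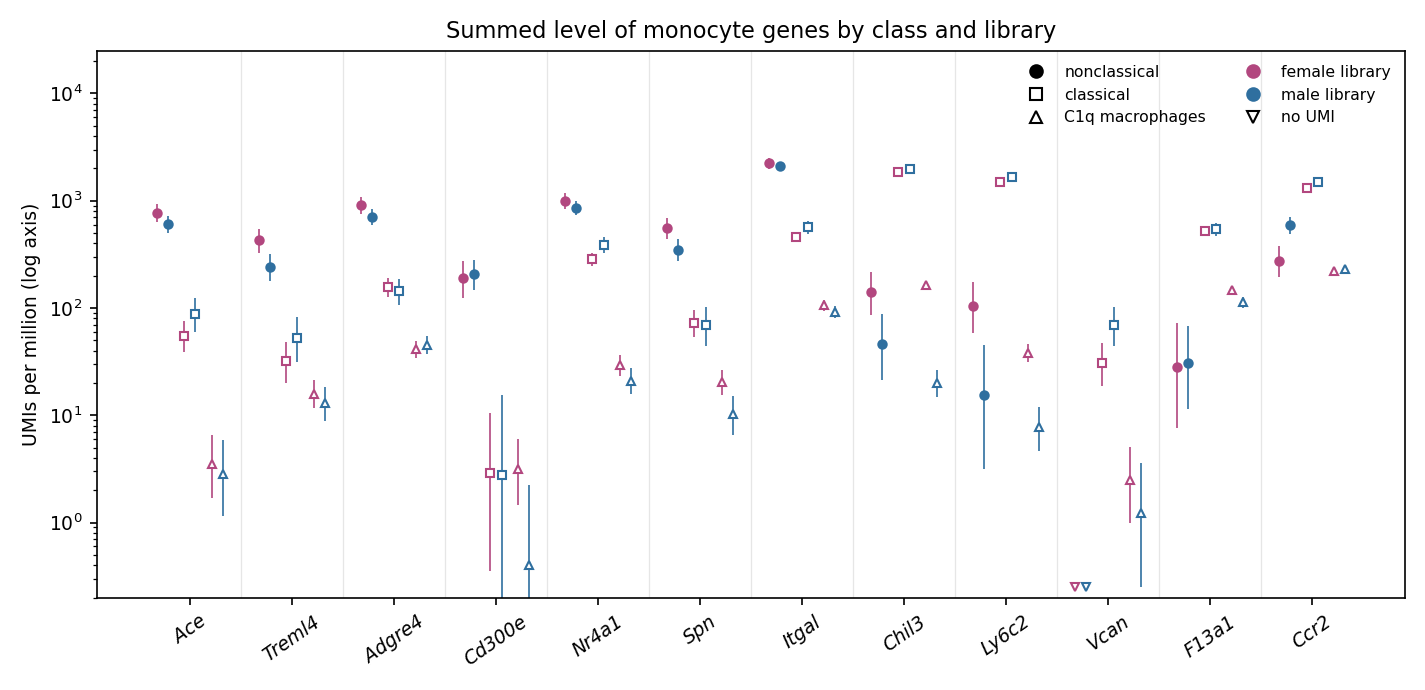
Summed level of 12 monocyte genes in CPM (log axis) for nonclassical cells (filled circles), classical cells (open squares) and C1q macrophages (open triangles), in the female and the male library, with exact Poisson 95% intervals. Nr4a1, Spn and Itgal, which did not choose the cells, lay above the classical cells in both libraries, and Vcan had no UMI in nonclassical cells.

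The cells differed in how many of the 4 genes they showed. In the female library 6 cells had UMIs of 1 of the genes, 31 of 2, 23 of 3 and 4 of all 4, and in the male library the numbers were 12, 20, 25 and 7. Adgre4 was detected in 52 cells of each library, Ace in 46 and 49, Treml4 in 37 and 34, and Cd300e in 18 and 20. The summed UMIs of the 4 genes had a median of 4 in female and 5 in male cells, and reached 16 and 17. No UMI of the classical genes was found in 43 female and 53 male cells. At the edge of the choice, the 12 female and 13 male cells with a sum of 2 had Nr4a1 at 1039 and 467 CPM, and the 20 and 12 cells of the gate left out with a sum of 1 had it at 376 and 178 CPM. Ccr2 was at 520 and 492 CPM just inside the edge and at 995 and 824 CPM just outside it.

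Nonclassical cells formed 1.68% (1.29 to 2.14) of the kept female and 2.56% (1.98 to 3.25) of the kept male barcodes, a female minus male difference of -0.881 percentage points (-1.66 to -0.165). This difference depended on the choice of cells. It was -0.209 points when no C1q UMI was allowed (1.31% female and 1.52% male), -0.00596 points under a mitochondrial ceiling of 1.2% of UMIs, and -1.34 points among cells with at least 1000 UMIs. Of nonclassical and classical monocytes together, they were 26.2% (20.8 to 32.2) in the female and 40.8% (33.0 to 48.9) in the male library, a difference of -14.5 points (-23.9 to -5.12), which was -12.8 points with no C1q UMI and -5.11 points under the ceiling of 1.2%. These shares are set by the choice, and classical cells were more numerous in the female library. The choice also left some barcodes aside. In 62 female and 30 male barcodes the nonclassical sum passed but the gate did not, mostly through C1q UMIs over the ceiling (51 and 27 barcodes), and 8 female and 5 male barcodes of the gate had equal sums.

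Female nonclassical cells held fewer UMIs, with a median of 1623.5 UMIs and 859.5 genes against 2383 UMIs and 1204 genes in males, and had a median of 3.20% against 2.01% mitochondrial UMIs. The summed counts compared were 142546 and 194236 UMIs, and 13 female and 2 male cells had under 1000 UMIs. Over all kept barcodes the female library had the higher median, 3539 against 3021.5 UMIs. The 64 nonclassical cells of each library held 5 UMIs of 5 T cell markers, 44 female and 48 male UMIs of 5 B cell markers, and 6 female and 20 male UMIs of 5 dendritic cell markers. The choice itself set 1 T cell marker, Cd3e, and 1 B cell marker, Cd79a, to 0. Adrenal cortex markers were at 147 and 170 CPM, against 49.6 and 30.3 CPM in classical cells and 225 and 191 CPM in C1q macrophages, and their part in the results was not tested. Endothelial markers were uneven. A single female barcode held 102 of the 111 endothelial marker UMIs (Kdr, Cdh5, Egfl7, Plpp3 and Emcn) of the female cells, 55 female cells held none, and the 64 male cells held 5 in all. Sex differences that involve this barcode are also given with barcodes of 3 or more endothelial UMIs removed, which were 1 female and 1 male nonclassical cell. The libraries shared 2 barcodes, none of them nonclassical, and Xist had 75 UMIs in the female and 0 in the male cells.

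Compared with classical monocytes, the nonclassical cells held more transcripts of Slc12a2, of Itgal and Spn and of Nr4a1 and Tcf7l2, and fewer of Ccr2 and Fn1. Of 3782 genes with at least 20 UMIs over both classes in each library, leaving aside the genes of the choice, 118 (3.12%) were at least 2-fold higher in nonclassical cells in both libraries and 51 (1.35%) at least 2-fold lower, on CPM with 10 added. The median gene differed by 0.10 on the log2 scale in the female and 0.06 in the male library. A list of 27 known nonclassical genes outside the choice, gathered with these results in view, had 17 members higher and none lower (medians of 1.77 and 1.18), and a list of classical genes had 10 of 21 lower and none higher (medians of -1.16 and -1.10).

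Slc12a2, the sodium, potassium and chloride cotransporter NKCC1, had the largest difference by the smaller of the 2 libraries. It held 54 UMIs in female nonclassical cells (379 CPM, 285 to 494) and 64 in male ones (329 CPM, 254 to 421), against 7 and 5 UMIs in classical cells (10.2 and 13.8 CPM). The ratios were 37.1 (16.8 to 96.7) and 24.0 (9.75 to 76.3). Against C1q macrophages the ratios were 34.5 and 31.2. It was found in 25 female and 27 male nonclassical cells.

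Eno3, the muscle form of the glycolytic enzyme enolase, was at 295 and 252 CPM, 14.4 times (7.73 to 28.6) and 9.17 times (4.59 to 20.3) the classical level. Ear2, a secreted ribonuclease of the eosinophil-associated family, was at 617 and 494 CPM, with ratios of 7.84 (5.53 to 11.2) and 6.20 (4.05 to 9.74), and at 6.02 and 8.94 CPM in C1q macrophages. Ear2 has near-identical relatives in the mouse, so its count may include or lose reads of them. Pglyrp1, a secreted protein that binds bacterial peptidoglycan, was at 372 and 417 CPM against 52.5 and 68.8 CPM in classical cells. The remaining leaders were Dusp16, a phosphatase of JNK, the actin regulator Cyfip2, the Arf exchange factor Cyth3, the lymphotoxin gene Ltb and the growth factor gene Pdgfb, with ratios between 6.42 and 15.6 over both libraries. Under the mitochondrial ceiling of 1.2% of UMIs, the smaller log2 difference of the libraries was -0.92 for Dusp16, -1.48 for Ltb and 0.67 for Cyfip2, which ended these calls.

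Adhesion genes followed. Itgal, the alpha chain of LFA-1, was the most abundant of those that differed, at 2224 CPM (1986 to 2483) in female and 2090 CPM (1892 to 2304) in male nonclassical cells, against 461 and 569 CPM in classical cells, and was detected in 60 and 62 of the 64 cells. Spn, which encodes CD43, a surface sialoglycoprotein used to define these cells by flow cytometry, was at 554 and 350 CPM against 72.9 and 68.8 CPM, ratios of 7.60 (5.27 to 11.1) and 5.09 (3.18 to 8.40), and was just short of 2-fold under the ceiling of 1.2% (0.99 on the log2 scale). Itgax (CD11c) was 5.50 (2.93 to 10.4) and 6.24 (2.89 to 14.9) times and Ceacam1 4.99 (3.36 to 7.42) and 2.89 (1.85 to 4.55) times higher. Itgb2, the partner chain of Itgal, was at 568 and 530 CPM with ratios of 1.47 and 1.54 and did not reach 2-fold. Of 18 adhesion genes above the filter, these 4 were higher.

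Among 7 chemokine and S1P receptors, Ccr2 was lower and Cxcr4, S1pr5 and Fpr2 were higher. S1pr5, a receptor for egress into blood, was at 112 and 144 CPM against 26.2 and 13.8 CPM, and Cxcr4, the receptor of the bone marrow chemokine Cxcl12, at 526 and 335 CPM against 226 and 160 CPM. Cx3cr1, the fractalkine receptor, was at 631 and 427 CPM, 1.69 (1.31 to 2.15) and 1.40 (1.04 to 1.88) times the classical level, and below the C1q macrophages, which held 848 and 855 CPM.

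Of 25 transcription factors, 4 were higher and 1 was lower. Beside Nr4a1 these were Tcf7l2, an effector of Wnt signalling (182 and 175 CPM against 13.1 and 16.5 CPM), Pou2f2, an octamer-binding factor (856 and 731 CPM against 312 and 256 CPM), and Hes1, a target of Notch (140 and 139 CPM against 23.3 and 57.8 CPM). Cebpa, a factor of granulocyte and monocyte progenitors, was lower, at 35.1 and 51.5 CPM against 140 and 201 CPM. Klf2, Klf4 and Cebpb exceeded the 2-fold line in the female library and not in the male library. Their ratios were 2.15, 3.06 and 2.08 in the female and 1.40, 2.00 and 1.44 in the male library, and 10 CPM had been added for the 2-fold line. The difference of these ratios between the libraries was not tested.

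**Figure D2:**
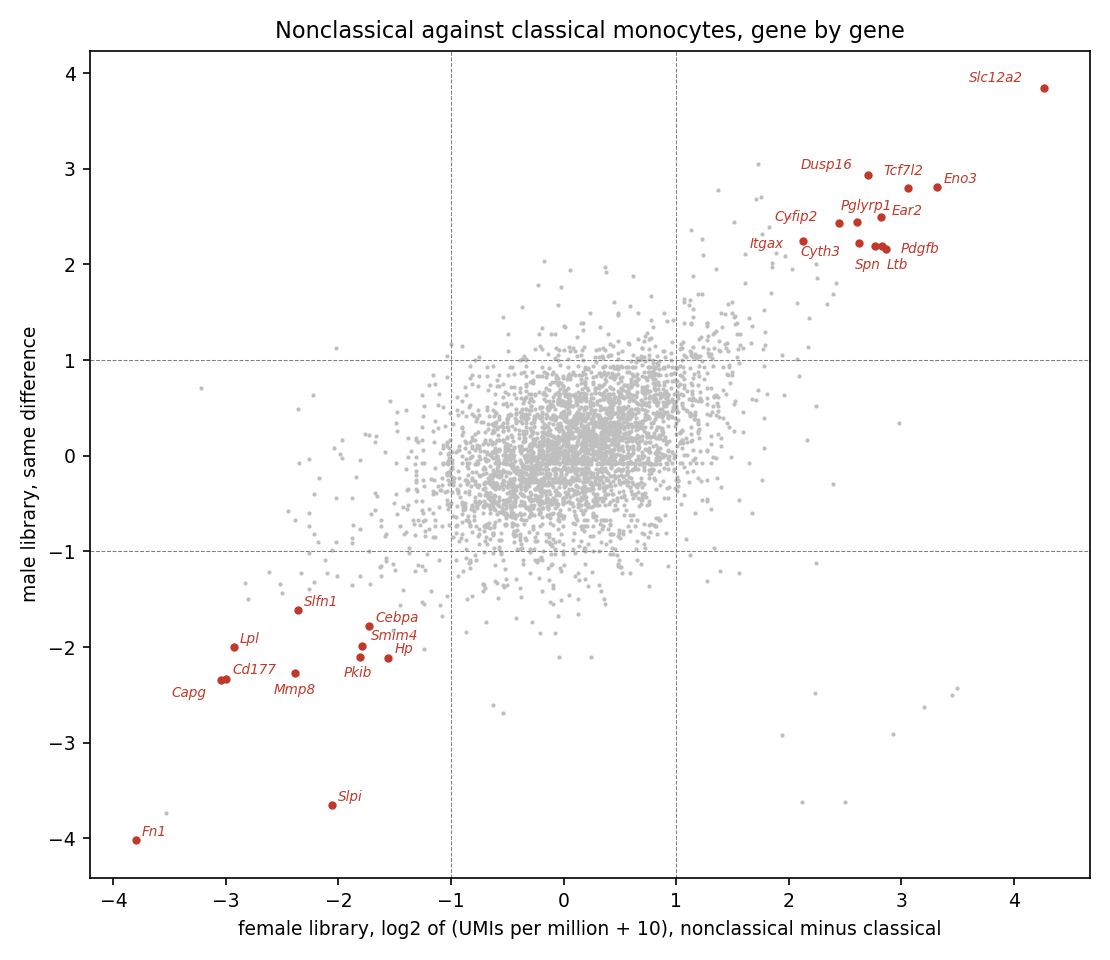
Difference in log2 of (CPM + 10) between nonclassical and classical cells for each of 3782 genes, female library on the x axis and male library on the y axis, with the 2-fold lines dashed and leading genes of each direction labelled in red. The leading genes lie in the upper right and lower left corners, and the few points at the lower right include the endothelial genes Emcn, Plpp3 and Kdr.

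Immune receptors differed in both directions. Fcgr4, the activating receptor for IgG that marks nonclassical cells, was at 203 and 180 CPM against 65.6 and 52.3 CPM in classical cells (ratios of 3.10, 1.87 to 5.06, and 3.45, 1.92 to 6.38). Fcgr1, the high-affinity IgG receptor CD64, was at 35.1 and 30.9 CPM against 139 and 93.5 CPM. Among 17 paired and inhibitory receptors, Pilra, Cd300ld, Trem3, Lair1 and Havcr2 were higher and Clec4a2 was lower. Cd300ld, a relative of Cd300e, was at 386 and 293 CPM against 64.1 and 77.0 CPM. Ly6i of the Ly6 family was higher (253 and 149 CPM against 56.9 and 27.5 CPM), while Ms4a4c, Ms4a6d and Ms4a8a were lower.

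Lipid genes differed in both directions too. Cd36, a scavenger receptor for oxidised lipoproteins, was at 386 and 541 CPM against 88.9 and 88.0 CPM in classical cells, 4.34 (2.96 to 6.35) and 6.14 (4.10 to 9.43) times higher. It too was shared with C1q macrophages, of which 23.9% and 39.2% held a UMI after thinning, against 31.4% and 41.9% of nonclassical cells. Lpl, the lipoprotein lipase, had 1 and 8 UMIs against 82 and 71, with ratios of 0.0587 (0.00147 to 0.336) and 0.211 (0.0877 to 0.438). Of 15 lipid genes, Scd1 was also higher and Npc2 also lower. Hfe, the haemochromatosis gene, was at 182 and 201 CPM against 43.7 and 55.0 CPM, and Bcl2a1b, a gene of the Bcl2 survival family with close paralogs, at 189 and 190 CPM against 77.3 and 52.3 CPM.

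The leading transcripts low in nonclassical cells included Fn1, granule genes and Ccr2. Fn1 (fibronectin) was at 84.2 and 97.8 CPM against 1302 and 1741 CPM, 15.5-fold and 17.8-fold lower. Capg, an actin-capping protein, was at 28.1 and 46.3 CPM against 303 and 278 CPM, and Hp, haptoglobin, at 98.2 and 56.6 CPM against 309 and 278 CPM. The granule genes Cd177 and Mmp8 had no UMI in the female cells, where they were at least 3.33-fold and 2.01-fold lower (a floor of 3 counts), and 1 UMI each in the male cells. Slpi, an inhibitor of neutrophil elastase, had 2 UMIs in the female and none in the male cells, where it was at least 7.48-fold lower. Ccr2 itself, the recruitment receptor, was at 274 CPM (195 to 374) and 592 CPM (489 to 711), against 1308 and 1494 CPM, 4.78-fold and 2.52-fold lower. Under the ceiling of 1.2%, the smaller log2 difference was -0.76 for Capg and for Cd177, -0.70 for Lpl and -0.95 for Cebpa, short of 2-fold, and with 50 CPM added Mmp8 was at -0.88.

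Of 12 interferon-stimulated genes above the filter, Isg15, Ifit3, Rsad2 and Oasl2 were at least 2-fold lower in both libraries and none was higher, and the median of the 12 was -1.06 and -1.05 on the log2 scale, beside 0.10 and 0.06 for all genes. Isg15, a ubiquitin-like protein, was at 56.1 and 66.9 CPM against 171 and 217 CPM in classical cells, from 8 and 13 UMIs. Of 10 genes of MHC class I presentation and 11 lysosomal genes, none reached 2-fold in both libraries in either direction.

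**Figure D3:**
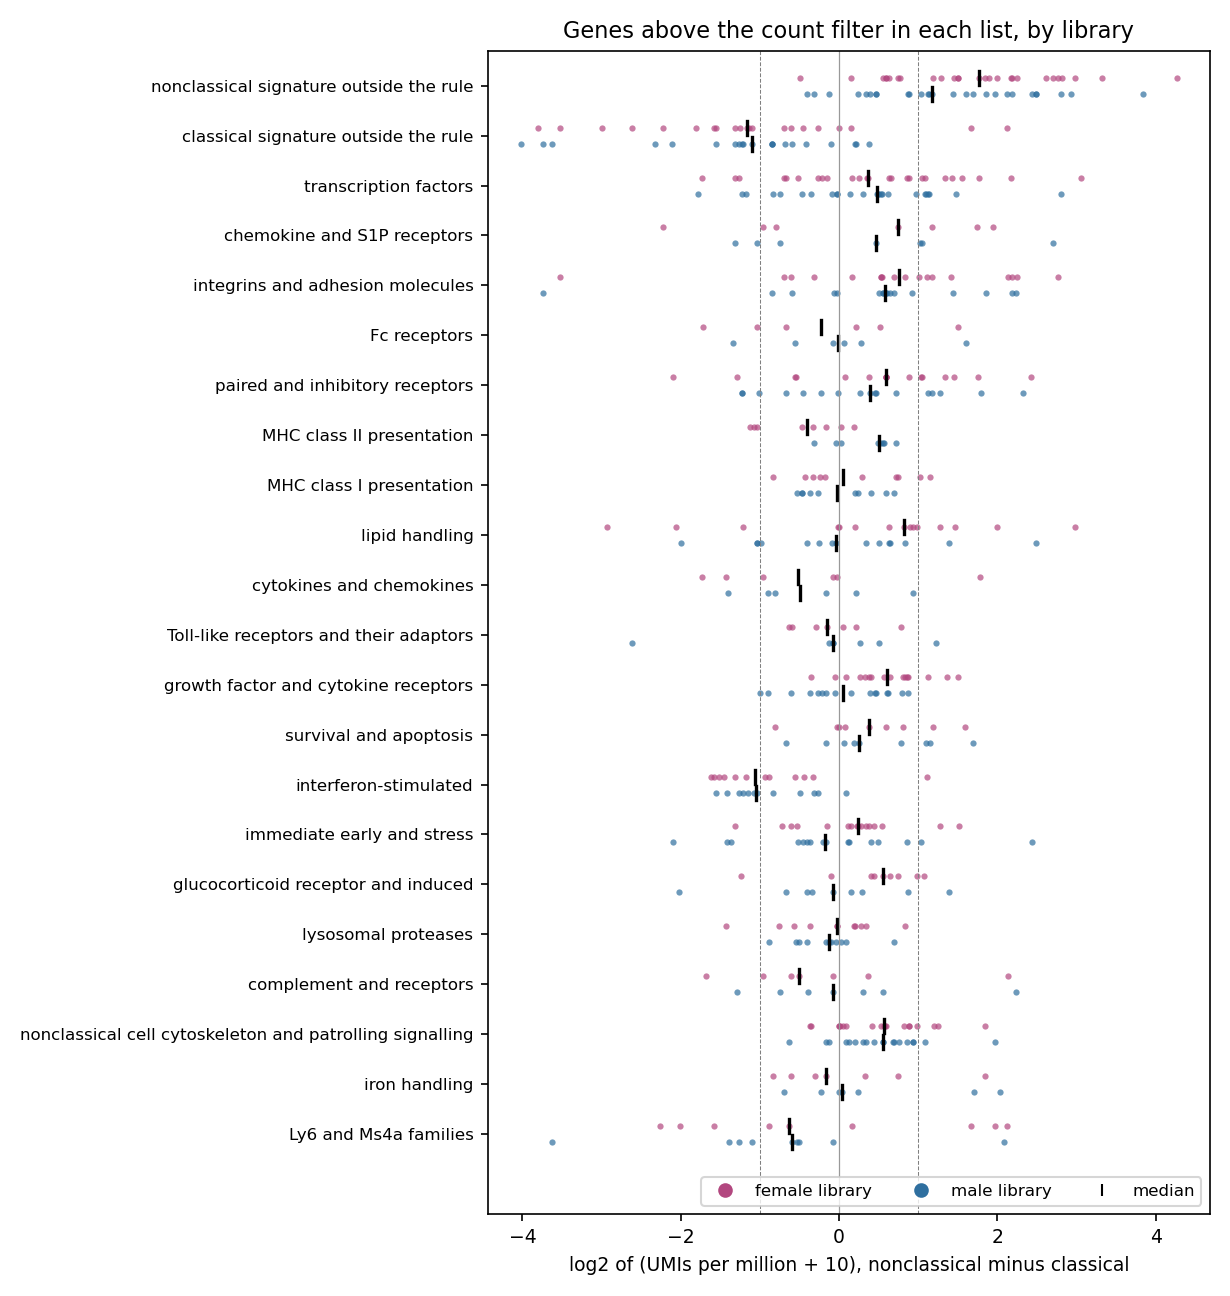
Difference in log2 of (CPM + 10) between nonclassical and classical cells for the genes of each list above the count filter (points), in the female and the male library, with medians as black bars and the 2-fold lines dashed. The nonclassical list lay to the right and the classical and interferon-stimulated lists to the left in both libraries, while the median of the MHC class II list was -0.40 in the female and 0.51 in the male library.

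Against C1q macrophages, the cells held more of the monocyte genes Plac8 and Itgal and less of Cd63, Vcam1 and Apoe. Of 8294 genes above the filter, 440 (5.31%) were at least 2-fold higher in both libraries and 551 (6.64%) lower. Plac8, a small cysteine-rich protein of monocytes and granulocytes, was at 3536 and 3419 CPM, 40.6 and 46.0 times the macrophage level, and was shared with classical cells (4966 and 4228 CPM). Ceacam1 (60.5 and 68.5 times), Nxpe4 (53.9 and 57.0 times), Itgal (20.9 and 22.8 times), the Src-family kinase gene Fgr (22.4 and 24.1 times) and the interleukin-17 receptor gene Il17ra (24.8 and 21.4 times) were also among the leaders.

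On the macrophage side, the tetraspanin gene Cd63 was at 764 and 969 CPM in C1q macrophages and had 2 and 1 UMIs in nonclassical cells. The adhesion gene Vcam1 had 1 UMI in each library against 377 and 375 CPM. The endocytic adaptor gene Dab2 had 0 and 3 UMIs against 417 and 411 CPM, and Slc40a1, the iron exporter ferroportin, and Hpgds, a prostaglandin synthase, had none in either library (a floor of 21.0 and 15.4 CPM), against 175 and 182 CPM and 193 and 203 CPM. Apoe was present at 2406 and 2765 CPM, like in classical cells (2398 and 3290 CPM), and at 33836 and 21008 CPM in the macrophages. Of 13 lysosomal genes 7 were lower and none higher, and of 20 genes of the cytoskeleton and of integrin signalling 11 were higher and none lower. Of 19 immediate early and stress genes, 6 were higher and Ier3 was lower. Fos, an immediate early gene that tissue dissociation is known to induce, was at 610 and 561 CPM against 141 and 197 CPM in the macrophages and 885 and 1463 CPM in classical cells, and the part of the digestion step in this was not tested.

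MHC class II transcripts, whose proteins present antigen to CD4 T cells, were abundant in a minority of the cells chosen as nonclassical. After thinning to 1000 UMIs, the sum of Cd74, H2-Aa, H2-Eb1 and H2-Ab1 had a median of 0 in 51 female and 2 in 62 male nonclassical cells, against 34 and 51 in C1q macrophages and 0 in T cells of both libraries. More than 10 such UMIs per 1000 were found in 7 of 51 female (13.7%, 5.70 to 26.3) and 16 of 62 male cells (25.8%, 15.5 to 38.5), against 15.6% and 20.0% of classical cells, 73.0% and 94.3% of C1q macrophages, and 0.587% and 0% (0 to 1.08 in the male library) of T cells. The 5 highest cells held 68.6% of these UMIs in the female and 55.2% in the male library. With those 5 cells left out, the summed level went from 6672 to 2500 CPM in the female and from 15265 to 8300 CPM in the male cells.

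**Figure D4:**
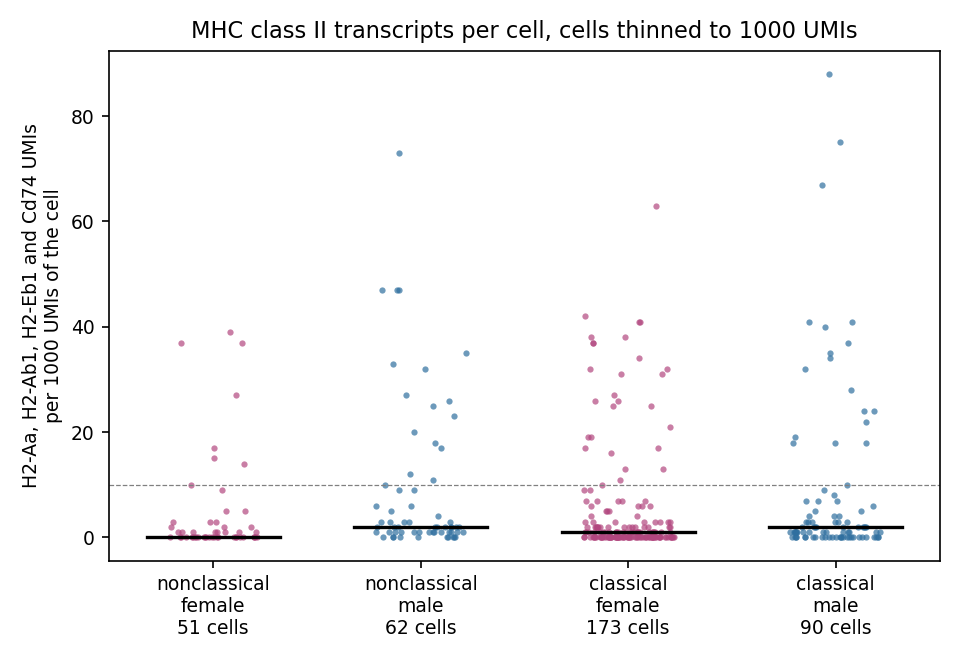
UMIs of Cd74, H2-Aa, H2-Eb1 and H2-Ab1 per 1000 UMIs (y axis) in each nonclassical and classical monocyte with at least 1000 UMIs, by library, with the median as a black bar and the value of 10 dashed. Most cells lay near 0 and a minority above 10, which were 7 female and 16 male nonclassical cells.

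In the male library the cells above 10 also differed in other genes. The 16 cells had Ace at 245 CPM (150 to 379) against 855 CPM (692 to 1045) in the other 46, Cd300e at 49.0 against 315 CPM, Itgal at 834 against 3016 CPM, Spn at 159 against 495 CPM and Nr4a1 at 466 CPM (330 to 639) against 1134 CPM (945 to 1350). Ccr2 was at 785 CPM (604 to 1002) against 459 CPM (342 to 604). All 17 Cd209a UMIs, a gene of type 2 dendritic cells and of monocyte-derived cells, fell in 5 of the 16 cells, and all 14 UMIs of Ciita, the MHC class II transactivator, in 8 of them. The 5 dendritic cell markers, Cd209a among them, held 20 UMIs in the 16 cells and none in the other 46. In the female library they held 2 UMIs in the 7 cells above 10 and 4 in the other 44. In the female library the 7 cells had Ace at 899 CPM (587 to 1317) against 669 CPM (520 to 846), Nr4a1 at 1002 against 901 CPM, Spn at 588 against 562 CPM and Itgal at 1486 against 2238 CPM. Cd300e had no UMI in these 7 cells and 22 UMIs in the other 44, Ccr2 was at 415 CPM (214 to 725) against 252 CPM (165 to 369), and no female cell of either kind held a Cd209a UMI. The cells above 10 were also the ones with more UMIs. Their median was 4257 against 1822 in the female and 5054.5 against 2190 in the male library. A fixed number of UMIs is a lower CPM in a cell with more UMIs. The part of this in the Ace and Cd300e values was not tested. Of the genes outside the choice, Itgal was lower in the cells above 10 of both libraries, and Nr4a1 and Spn were lower in those of the male library only. The female Itgal intervals, 1076 to 2002 and 1959 to 2546, overlap. The female Ccr2 values rest on 12 and 26 UMIs and their intervals overlap. As the cells were divided by their counts, no test applies to these differences, cells with fewer than 1000 UMIs were not included, and the part of dendritic cells or of doublets was not tested.

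Between the sexes, the markers Nr4a1, Itgal and Spn lay within 2-fold, and 4 MHC class II genes were at least 2-fold higher in the male cells. Of the 27 nonclassical genes listed outside the choice, 1 reached 2-fold with all barcodes in, Fabp4, which was higher in female cells. Of 2749 genes with at least 20 UMIs over the nonclassical cells of both libraries, 77 (2.80%) were at least 2-fold higher in female and 85 (3.09%) at least 2-fold lower, and the median gene differed by 0.02 on the log2 scale. Among the markers outside the choice, the female over male ratio was 1.17 (0.925 to 1.47) for Nr4a1, 1.06 (0.916 to 1.24) for Itgal and 1.58 (1.13 to 2.22) for Spn. The genes of the choice are given as a description only, since a fixed number of their UMIs selected the cells and the female cells held fewer UMIs in all, so that the same count is a higher CPM. Their ratios were 1.27 for Ace, 1.77 for Treml4, 1.27 for Adgre4 and 0.920 for Cd300e, and nothing is read from them about the sexes. Intervals that include 1 do not show equal levels, and none of them covers the spread between animals.

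Of 7 MHC class II presentation genes above the filter, H2-Aa, H2-Ab1, H2-Eb1 and H2-DMb1 were at least 2-fold lower in female cells, and the median of the list was -1.22. H2-Eb1 was at 687 CPM (558 to 838) in the female and 2322 CPM (2113 to 2546) in the male cells, 3.38 times higher in males (2.71 to 4.25), with UMIs in 18 and 28 cells. H2-Aa was 2.34 (1.98 to 2.77) and H2-Ab1 2.57 (2.14 to 3.11) times higher in the male cells, and Cd74 1.99 (1.79 to 2.20) times. Under a mitochondrial ceiling of 1.2% of UMIs, with 10 female and 11 male cells left, the log2 of female over male was 0.02 for H2-Ab1 and -0.15 for H2-Aa, neither of which reached 2-fold, and -1.26 for H2-Eb1. With a sum of at least 3 UMIs of the choosing genes H2-Aa was at -0.80. The same female over male ratio of H2-Eb1 was 0.296 in nonclassical cells, 0.679 in classical cells and 0.601 in C1q macrophages. These UMIs came from few cells, as given above, so counting intervals understate the error. In the male library the cells with more than 10 per 1000 were lower in Nr4a1, Itgal and Spn than the other male cells. The male cells also held more UMIs per cell and a lower mitochondrial share, and the part of this in the sex differences was not tested. With the endothelial-rich barcodes removed, 56 genes were higher and 81 lower in female cells.

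Other genes lower in female cells were Tmem176b, an ion channel of antigen presenting cells (119 against 340 CPM), Bcl6, a transcriptional repressor (98.2 against 268 CPM, a male over female ratio of 2.73, 1.49 to 5.33), S100a10 (112 against 293 CPM), Itgam, the CD11b chain (147 against 355 CPM) and Ccr2 (274 against 592 CPM). With no C1q UMI allowed, S100a10 was at -0.16 on the log2 scale of female over male, and with a sum of at least 3 UMIs Tmem176b was at -0.99 and S100a10 at -0.93. Bcl6 was detected in 11 female and 29 male cells, and was at 72.9 and 63.3 CPM in classical cells, where the sexes lay close together. Itgam was at 230 and 239 CPM in classical cells. Of the male cells with at least 1000 UMIs, the 16 above 10 MHC class II UMIs per 1000 held 64 Ccr2 UMIs. The other 46 held 51. In the cells at 10 or under, Ccr2 was at 252 CPM (165 to 369) in the female and 459 CPM (342 to 604) in the male library. The part of those 16 cells in the other differences of this paragraph was not tested.

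Among genes with at least 50 UMIs, the 10 leading genes low in female cells all reached 2-fold, and 3 of the 10 leading high ones did. Cbfa2t3, a transcriptional corepressor, was at 337 CPM (248 to 446) in the female and 149 CPM (100.0 to 214) in the male cells, a ratio of 2.26 (1.39 to 3.71), against 144 and 151 CPM in classical cells. Cbfa2t3 was at 0.82 on the log2 scale of female over male among cells with at least 1000 UMIs and at 0.91 with a sum of at least 3 UMIs, under 2-fold in both. Ddit4, a glucocorticoid- and stress-induced inhibitor of mTORC1, was at 232 and 103 CPM, a ratio of 2.25 (1.25 to 4.13), and its female over male ratio was 3.18 in classical cells and 2.43 in C1q macrophages, but with no C1q UMI allowed the nonclassical difference was 0.49 on the log2 scale. Sgk1, another glucocorticoid-induced gene, was at 154 and 72.1 CPM, and without the endothelial-rich barcodes at 112 and 72.4 CPM, a ratio of 1.54 (0.694 to 3.45) that did not reach 2-fold. With all barcodes in, these were 2 of the 7 genes of the glucocorticoid list above the filter, the other 5 lying within 2-fold. Fabp4, a fatty acid-binding protein of vessels and macrophages, was at 484 and 232 CPM, and without the endothelial-rich barcodes at 447 and 222 CPM, a ratio of 2.01 (1.34 to 3.04) that fell short of 2-fold with 10 CPM added. It was at -1.05 on the log2 scale, the opposite direction, under the ceiling of 1.2%. In classical cells Fabp4 was lower in the female library, at 52.5 against 182 CPM. Ly6a was at least 2-fold higher in female cells with these barcodes in (189 and 87.5 CPM) and stood at 67.0 and 87.9 CPM without them.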

How the data were processed

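Single-cell RNA sequencing libraries (10x Genomics 3′, v3.1 chemistry per the labels) were made from sorted live CD45+ adrenal cells. The deposited values were raw UMI counts per gene and barcode, which the authors made with Cell Ranger 4.0.0 on mm10, and barcodes of noise had been removed with DropletUtils 1.4.3. The annotation used for counting is not given in the sources used here. The female library held 16218309 UMIs over 3963 barcodes and the male library 9512670 over 2685.

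Barcodes with at least 200 genes and at most 15% mitochondrial UMIs were kept. The study describes a ceiling of 1.2%. Taken as a percentage of UMIs it kept 327 and 359 barcodes here, far fewer than the study worked with, so the scale of that ceiling is uncertain. Counts were summed per library and class in Python 3.11.15 with scipy 1.17.1. Genes were called by size alone, at least 2-fold on CPM with 10 added, in each library for comparisons of classes. Shares have Clopper-Pearson, differences of shares Newcombe, levels exact Poisson and ratios exact conditional binomial 95% intervals. Cells were thinned to 1000 UMIs for shares with a UMI, and a count of 0 was given a floor of 3 counts.

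Named genes were the 12 highest and 12 lowest by the smaller of the library differences, the 10 highest and 10 lowest between the sexes with at least 50 UMIs, and members of 25 gene lists, and 1 gene that this rule names is not reported here. The members and lists were chosen with earlier results of these data known. No doublet was removed beyond the lineage genes of the choice. Scrublet scores (scanpy 1.11.5), cut at 0.8% per 1000 barcodes, put 0 female and 1 male nonclassical cells among the highest. Calls were tested on simulated data. Gene positions are from GENCODE vM21, and the start windows from RefSeq.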

Additional observations from a re-analysis of the deposited data

Results flagged for a closer look

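Of the genes in the lists, 4 differed at least 2-fold between nonclassical and classical cells in opposite directions in the female and the male library, on the log2 scale of CPM with 10 added. Emcn was at 3.20 in the female and -2.63 in the male library, Plpp3 at 3.45 and -2.50, Kdr at 1.94 and -2.92, and Ly6c1 at 2.12 and -3.62. The difference between the libraries was not tested. These are endothelial genes, and in the female cells 24 of 25 Emcn UMIs, 41 of 46 Plpp3 UMIs and all 12 UMIs each of Kdr and Ly6c1 lay in a single barcode. Over all genes 15 were opposite in this way, and 6 were with barcodes of 3 or more endothelial marker UMIs removed, of which 2 were among the 15 and none was in a gene list. Ly6c1 and Ly6c2 are near-identical, and their counts may be exchanged.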

How the results depend on the processing

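With 1 library per sex, no replicate could be left out, and no paired analysis was possible because the sexes share no replicate. Depth limited genes of few UMIs, and 128 cells in all limited every share. Over the alternatives, 636 values of 68 named gene differences were computed: 509 stayed within the counting interval, 122 moved in the same direction and 5 reversed. All 5 reversed under a mitochondrial ceiling of 1.2% of UMIs. The scale of the ceiling described for these data is uncertain, so this setting may not be the one used for them. It left 10 female and 11 male nonclassical cells, and the cause was not tested. There Dusp16 was at -0.92 and Ltb at -1.48 (nonclassical over classical, smaller library), and Fabp4 at -1.05, Stap1 at -1.28 and H2-Ab1 at 0.02 (female over male).

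Under the same ceiling the share of kept barcodes was 3.06% in the female library and the sex difference -0.00596 points, and the share of the monocytes 12.3% and 17.5%, a difference of -5.11 points. Genes higher and lower than in classical cells then numbered 19 and 31, than in C1q macrophages 56 and 86, and in female than male cells 19 and 28. With a C1q sum of 0, the male share was 1.52%, 75 genes were higher than in classical cells and 52 lower in female cells. With 1 CPM added, 901 genes were lower than in macrophages. With 50 CPM added, the counts were 44 and 18 against classical cells, 220 and 158 against macrophages and 16 and 17 between the sexes. With genes of at least 50 UMIs they were 53 and 28 against classical cells and 3 and 16 between the sexes, and with at least 1 UMI 188 and 111, and 934 and 1006. Chosen without Ace, the female shares were 1.26% of kept barcodes and 20.7% of the monocytes, and without Adgre4 1.21% and 19.7%. The removal of endothelial-rich barcodes was added after seeing the data.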
